A study of Mus musculus with 3 samples.

Results

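The genes followed here are the kinase gene Sgk1, the glucocorticoid-responsive genes Tsc22d3, Fkbp5, Per1 and Ddit4, and the FOXO factor genes Foxo1 and Foxo3. They are 7 of the 31053 genes counted in 3 single-cell RNA-seq libraries of mouse spleen CD4+ T cells. They were chosen from the feature table by name, after their values in these libraries were known, so every level and ratio given for them is a description and not a test. The study asked what the ciliary transport protein IFT20 does in CD4+ T cell activation. All 3 libraries came from C57BL/6 mice that carry the floxed allele Ift20 f/f, and the methods name young males. WT means Ift20 f/f without Cre, and IFT20-KO means Ift20 f/f CD4 cre, in which the Cd4 promoter drives Cre. Cells enriched as naive were kept in DPBS, a buffer, for the unstimulated WT library (time 0 h). For the stimulated WT and the stimulated IFT20-KO library they were cultured for 24 h with anti-CD3 and anti-CD28 antibodies at 1 μg/mL each. Live (7AAD-) CD3+ CD4+ cells were sorted from each. No unstimulated IFT20-KO library was analysed here, and how many mice went into a library is not given in the sources used here.

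Glucocorticoids, the adrenal steroid hormones, bind the glucocorticoid receptor (gene Nr3c1), which is held ready by heat shock protein chaperones and then acts on DNA as a transcription factor. Serum- and glucocorticoid-regulated kinase 1, the product of Sgk1, belongs with the AKT kinases to a branch below PI3K and mTORC2, and both kinds of kinase phosphorylate FOXO factors and thereby keep them out of the nucleus. In resting T cells FOXO1 is known to maintain genes for homing and survival, among them Klf2, S1pr1 and Il7r, and signals of the T cell receptor and CD28 inactivate it.

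Among WT libraries, Sgk1 and Tsc22d3 were far lower after 24 h of culture with the antibodies, and Foxo1 and Ddit4 were moderately lower. Fkbp5, Per1 and Foxo3 differed from their unstimulated level by at most 0.51 on the log2 scale. These comparisons are on the scale of counts per 1000000 UMIs (CPM), where a UMI (unique molecular identifier) stands for 1 captured RNA molecule. Between the 2 stimulated libraries, WT and IFT20-KO, none of the 7 genes differed by as much as 0.32 on the log2 scale. Sgk1 and Tsc22d3 did once the median shift of all genes was subtracted. For Sgk1 this rests on 171 and 133 UMIs. Its detection in IFT20-KO was at the level of background B cell genes, as given below. In stimulated WT it was above those and below the share of Cd68, which is not a strict background gene. No difference is read for Sgk1. For Tsc22d3 the ratio before that subtraction was -0.19 with all UMIs and -0.09 in cells thinned to equal depth. In 3 groups of cells split by UMI count, a split added after the data had been seen, it lay between -0.31 and -0.55. In the shallow group its interval contained 0. With 1 library per condition there is no replicate of any value, no test was made, and every 95% interval covers counting error only. No library came from cells cultured for 24 h without the antibodies. An effect of the antibodies therefore cannot be told apart from one of the culture itself. Below, "for stimulation" names this contrast of the WT libraries.

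The data and the labels were checked first. After the filter of the study (more than 200 genes and under 15% mitochondrial UMIs), 8031 cells of the unstimulated library, 9903 of the stimulated WT library and 13920 of the IFT20-KO library remained, with 37133949, 116979076 and 106435143 UMIs. The median UMIs per cell were 4627, 12167 and 5014.5, so the stimulated WT library was the deepest per cell. Between 114 and 197 barcodes of the kept cells were found in each pair of libraries. Ift20 stood at 64.4, 76.0 and 6.60 CPM in the same order of libraries, 11.5-fold lower in IFT20-KO than in stimulated WT (interval, 10.6 to 12.4). The 6 T cell markers, such as Cd3e and Cd4, were detected in every library. Of the 6 B cell genes 3 to 5 had a UMI, with a summed level of 0.975 to 3.64 CPM, and the summed level of 7 myeloid genes was 2.45 to 3.75. The 4 erythroid genes were at 0, apart from 0.0094 CPM in IFT20-KO. Of 2 CD8 lineage genes, the summed level was 28.7 in unstimulated WT and 9.16 and 11.5 in the stimulated libraries. Nearly all of it was Cd8b1 (28.6, 9.04 and 11.2 CPM), while Cd8a was at 0.16, 0.12 and 0.29 CPM. The 10 genes of handling and heat stress summed to 2711, 4406 and 4181 CPM, of which Hspa8 alone made up 1742, 3655 and 3510. Of the other 9 genes, 7 were lower in stimulated than in unstimulated WT, like Sgk1 and Tsc22d3, among them Jun (103 and 12.4 CPM), Hspa1a (32.8 and 0.0598) and Dnajb1 (174 and 78.6), named after their values were seen. Their part in the results below was not tested.

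The 7 genes lie on 5 chromosomes of GRCm38 in the GENCODE M21 annotation. Sgk1 occupies chr10:21882184-21999903 on the + strand, Tsc22d3 chrX:140539528-140600659 on the - strand, and Foxo1 chr3:52268336-52353221 on the + strand. Ddit4 and Foxo3 are also on chromosome 10, Per1 is on 11 and Fkbp5 on 17. Only Foxo1 overlaps another counted gene, Gm20402, which is annotated on the opposite strand. RefSeq promoter windows, from 250 bases before to 50 bases after a transcription start, were at hand for all 7 genes, 15 windows in all and 6 of them for Sgk1.

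The core of the glucocorticoid receptor palindrome, ACANNNTGT, was searched on both strands. Of 15 member windows 2 held it, both of Sgk1, against 6.85% of the 32851 windows of all genes. These 2 windows are shown because Sgk1 had the lowest ratio of the 7 genes, and they are followed by the Tsc22d3 window whose start is also an annotated start in GENCODE, for the gene with the next lowest ratio. Capitals mark the palindrome core, or, near the start of the Sgk1 window at 21993640, an E-box.
Sgk1, chr10:21978422-21978721, + strand, GRCm38.p6: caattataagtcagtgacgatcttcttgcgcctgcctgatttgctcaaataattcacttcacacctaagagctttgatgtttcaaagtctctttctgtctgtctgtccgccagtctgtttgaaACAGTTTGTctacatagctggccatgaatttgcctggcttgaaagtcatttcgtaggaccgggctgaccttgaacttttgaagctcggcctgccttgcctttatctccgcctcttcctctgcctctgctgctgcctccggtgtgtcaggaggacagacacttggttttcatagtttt
Sgk1, chr10:21993640-21993939, + strand, GRCm38.p6: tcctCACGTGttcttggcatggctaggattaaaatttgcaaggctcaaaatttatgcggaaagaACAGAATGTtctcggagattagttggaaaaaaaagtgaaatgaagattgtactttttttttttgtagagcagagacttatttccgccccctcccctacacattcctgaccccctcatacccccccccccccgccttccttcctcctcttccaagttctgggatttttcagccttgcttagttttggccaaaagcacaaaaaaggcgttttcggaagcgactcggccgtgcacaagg
Tsc22d3, chrX:140542619-140542918, - strand, GRCm38.p6: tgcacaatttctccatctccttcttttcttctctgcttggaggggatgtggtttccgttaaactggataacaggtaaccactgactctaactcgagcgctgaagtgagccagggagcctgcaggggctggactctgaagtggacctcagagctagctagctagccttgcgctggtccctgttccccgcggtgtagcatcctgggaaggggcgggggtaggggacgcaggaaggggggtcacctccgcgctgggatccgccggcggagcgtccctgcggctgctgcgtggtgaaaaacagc

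The core starts 127 bases before the transcription start in the Sgk1 window at 21978422 and 186 bases before it in the window at 21993640. In the latter the letters around the core extend the palindrome, with the same reading on both strands apart from the middle, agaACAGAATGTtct. This 15-letter stretch with its middle 3 letters left free occurs in 3 of the 32851 windows. That longer stretch was looked up after the window had been seen. The E-box CACGTG, to which clock and MYC proteins bind, was in 3 member windows, 1 each of Sgk1, Per1 and Fkbp5, against 7.15% of all windows. Neither the FOXO motif GTAAACA, found in 3.65% of all windows, nor the CREB motif TGACGTCA, found in 1.79%, was in any of the 15. No match overlapped another. A match of letters is not a bound site, and no match says nothing of sites elsewhere.

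Of the 7 genes, Sgk1 had the largest ratio between the WT libraries. Its level was 97.4 CPM in unstimulated WT (3615 UMIs), 1.46 in stimulated WT (171 UMIs) and 1.2496 in stimulated IFT20-KO (133 UMIs). The unstimulated library was high and both stimulated libraries were low, with counting intervals of 94.2 to 101, 1.251 to 1.698 and 1.05 to 1.48. Stimulated WT was 66.6-fold lower than unstimulated WT (interval, 57.1 to 78.1), a log2 ratio of -6.06. Ordered from the lowest ratio, Sgk1 was at rank 2 of the 3323 genes with at least 50 CPM in either WT library. T cell receptor and immunoglobulin segments were left out of these genes. The stimulated IFT20-KO library differed from stimulated WT by a log2 ratio of -0.23, with an interval from -0.56 to 0.11 that contains 0. Taken relative to the median of all genes, given below, this ratio was -0.36 and its interval no longer contained 0. Detection of Sgk1 in IFT20-KO was at the level of background B cell genes, as given below. In stimulated WT it was above those and below the share of Cd68, which is not a strict background gene. No difference is read from this ratio.

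Tsc22d3 encodes GILZ, a leucine zipper protein that glucocorticoids induce and that restrains inflammatory transcription factors. It was at 367 CPM in unstimulated WT, 15.3 in stimulated WT and 13.4 in IFT20-KO. Again the unstimulated library stood apart, and the log2 ratio of stimulated to unstimulated WT was -4.58 (-4.66 to -4.51), 24.0-fold lower and at rank 11. IFT20-KO over stimulated WT was -0.19 (-0.29 to -0.09).

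Fkbp5 encodes FKBP51, a co-chaperone that dampens binding of hormone to the glucocorticoid receptor and is itself induced by it. Its 3 levels were close, 18.3 CPM in unstimulated WT, 13.9 in stimulated WT and 16.2 in IFT20-KO. The log2 ratio was -0.39 (-0.52 to -0.26) for stimulation and 0.22 (0.12 to 0.32) for IFT20-KO over stimulated WT.

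Per1 is a repressor of the circadian clock and an early target of glucocorticoids and of CREB. It was at 11.6, 12.9 and 13.1 CPM in unstimulated WT, stimulated WT and IFT20-KO, an ordering within which no neighbours were separated by their counting intervals. Its log2 ratio for IFT20-KO over stimulated WT was 0.02 (-0.08 to 0.13).

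Ddit4 encodes REDD1, an inhibitor of mTORC1 that responds to glucocorticoids, low oxygen and the stress factor ATF4. It was at 285 CPM in unstimulated WT, 116 in stimulated WT and 120 in IFT20-KO. The stimulated WT level was 2.47-fold lower than the unstimulated one (2.40 to 2.53), and IFT20-KO over stimulated WT was 0.05 (0.02 to 0.09) on the log2 scale.

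Foxo1, the main FOXO factor of T cells, was at 297 CPM in unstimulated WT, 64.3 in stimulated WT and 73.7 in IFT20-KO. Stimulated WT was 4.62-fold lower than unstimulated WT (4.49 to 4.76). Foxo3, its paralogue, was at 20.2, 14.2 and 17.6, and was 1.42-fold lower in stimulated than in unstimulated WT (1.302 to 1.550). For IFT20-KO over stimulated WT the log2 ratios were 0.20 (0.15 to 0.24) for Foxo1 and 0.31 (0.21 to 0.40) for Foxo3.

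**Figure D1:**
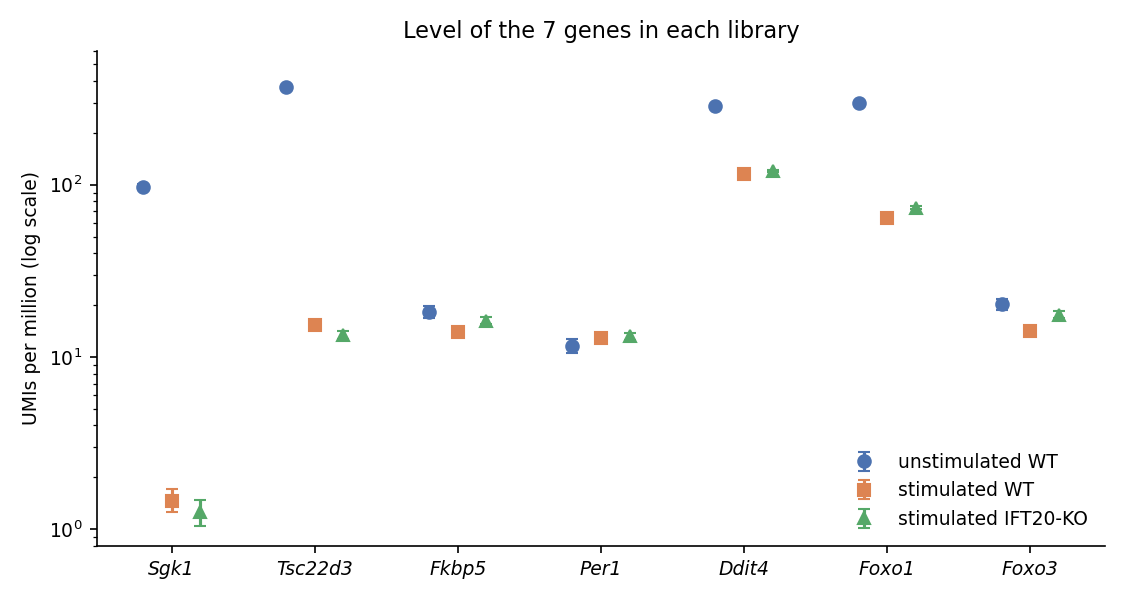
CPM (log axis) of the 7 genes in the library of unstimulated WT cells and the 2 libraries of stimulated cells, with exact Poisson 95% intervals that cover counting error only. Sgk1 and Tsc22d3 are high in the unstimulated library alone, at 97.4 and 367 CPM, and the 2 stimulated libraries lie close together for every gene.

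The libraries differed in UMIs per cell, so a level in CPM and a number per cell are different quantities. Per cell, Sgk1 was counted 0.450 times in unstimulated WT, 0.0173 times in stimulated WT and 0.00955 times in IFT20-KO. Tsc22d3 had 1.70, 0.181 and 0.103 UMIs per cell, and Foxo1 had 1.37, 0.760 and 0.563. These 3 genes were lower in the stimulated libraries on both scales. Ddit4, by contrast, had 1.32 UMIs per unstimulated WT cell and 1.37 per stimulated WT cell, and 0.916 per IFT20-KO cell. Fkbp5, Per1 and Foxo3 were counted more often per stimulated WT cell, with 0.0844 against 0.164, 0.0537 against 0.153 and 0.0933 against 0.168 UMIs. The number per cell depends on the RNA content of the cells and on how deeply each library was sequenced, which cannot be told apart.

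Counts of the 7 genes are to be read beside those of all genes, and since the genes were chosen on the same contrast nothing is read from them. Of the 7 genes 4 were at least 2-fold lower in stimulated than in unstimulated WT, against 23.0% of the 13297 genes that had 10 or more UMIs in the 2 libraries together. None was at least 2-fold higher, against 19.3% of genes. At a log2 ratio of at least 0.32 in size, 6 were lower (42.5% of all genes) and 0 higher (36.3%). Between IFT20-KO and stimulated WT no member passed 2-fold, where 1.67% of 13504 genes were lower and 3.92% higher. Nor did any pass 0.32 on the log2 scale, where 6.30% were lower and 30.1% higher. The median log2 ratio over all genes was -0.09 for stimulation and 0.14 for IFT20-KO over stimulated WT. Relative to that shift, Sgk1 was at -0.36 (-0.70 to -0.03) and Tsc22d3 at -0.33 (-0.43 to -0.22) in IFT20-KO, both past 0.32 in size. Fkbp5 was at 0.08 (-0.01 to 0.18), Per1 at -0.11, Ddit4 at -0.09, Foxo1 at 0.06 and Foxo3 at 0.17, and the sign of Per1 and Ddit4 turned. Counted as UMIs per cell, 851 genes were lower and 7782 higher by 2-fold in stimulated WT, in place of 3056 and 2562 in CPM. For IFT20-KO over stimulated WT, 9244 were lower and 605 higher by 0.32 on the log2 scale, in place of 851 and 4070, and 1770 and 2379 under median-ratio scaling. Both comparisons use the stimulated WT library.

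**Figure D2:**
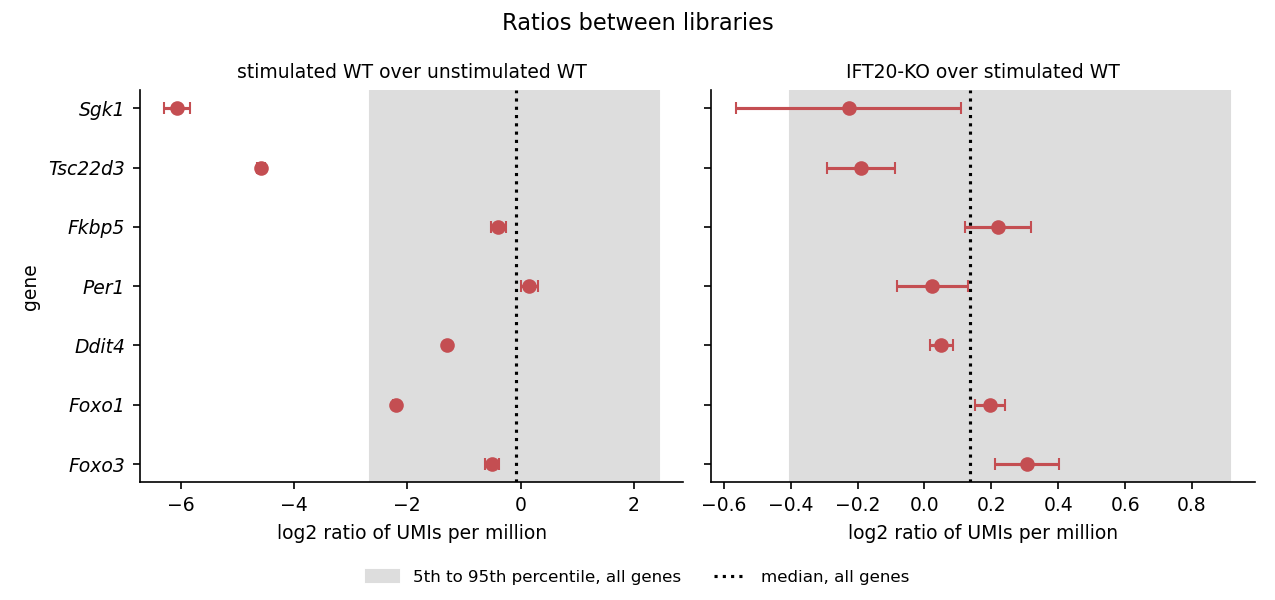
Log2 ratio of CPM of the 7 genes, with 95% counting intervals, for stimulated over unstimulated WT and for IFT20-KO over stimulated WT. Grey shows the 5th to 95th percentile of all genes and the dotted line their median. Sgk1 (-6.06) and Tsc22d3 (-4.58) lie outside the grey band on the left, and no gene lies outside it on the right.

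The CPM levels are sums over all cells of a library, so the share of cells in which each gene was seen was examined next. Because shares depend on depth, UMIs were drawn at random until every cell held 1400, which left out 801 shallower cells of the unstimulated library, 421 of the stimulated WT library and 0 of the IFT20-KO library. At this equal depth an Sgk1 UMI was found in 12.5% of unstimulated WT cells (11.7% to 13.2%), 0.232% of stimulated WT cells (0.145% to 0.351%) and 0.180% of IFT20-KO cells (0.116% to 0.265%). With all UMIs these shares were 32.6%, 1.57% and 0.862%. Genes that CD4+ T cells should lack give a measure of background. The B cell gene with the highest share was seen in 0.318%, 0.0949% and 0.158% of thinned cells, and the myeloid gene with the highest share in 0.0968%, 0.485% and 0.503% (Cd68 in the stimulated libraries, a lysosomal gene that is not strictly myeloid). The Sgk1 share of IFT20-KO cells lies at the B cell background by its interval. That of stimulated WT cells lies, by its interval, above the B cell value and below the myeloid value, which is that of Cd68. No difference in the Sgk1 share is read between the 2 libraries. In unstimulated WT the Sgk1 share lies far above both background values.

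Tsc22d3 was seen in 39.0% of thinned unstimulated WT cells and in 2.43% and 2.26% of stimulated WT and IFT20-KO cells. Foxo1 was seen in 33.3%, 10.5% and 12.1%, and Ddit4 in 30.0%, 13.4% and 13.8%. Fkbp5, Per1 and Foxo3 were each seen in 1.45% to 2.90% of thinned cells in every library. Without thinning, Per1 was seen in 5.04% of unstimulated and 12.8% of stimulated WT cells, and Ddit4 in 57.2% and 53.1%. The highest count in 1 cell was 6 Sgk1 UMIs in unstimulated WT, 13 for Tsc22d3 in the same library, and 25 for Ddit4 in stimulated WT. With all UMIs, 747 of 9903 stimulated WT cells held 5 or more Ddit4 UMIs, against 443 of 8031 in unstimulated WT and 504 of 13920 in IFT20-KO. These counts and the highest ones depend on depth, which was greatest in stimulated WT. In thinned cells the variance of the Ddit4 count divided by its mean was 1.22, 1.13 and 1.11 in unstimulated WT, stimulated WT and IFT20-KO, and that of Tsc22d3 was 1.20 in unstimulated WT. A ratio of 1 is that of counting error alone.

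**Figure D3:**
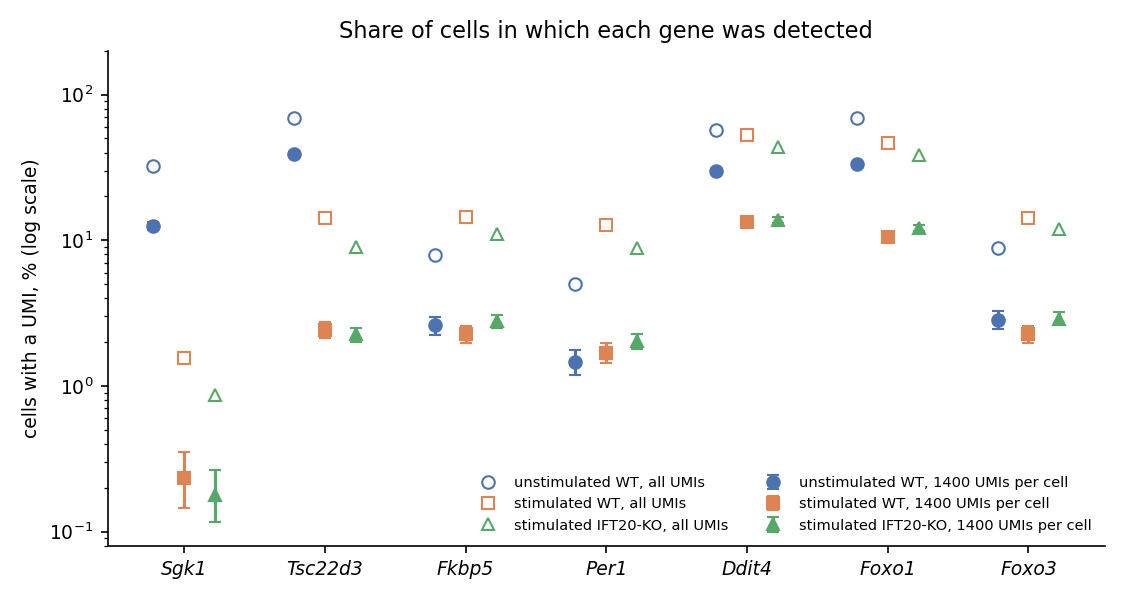
Share of cells with at least 1 UMI of each gene (log axis), thinned to 1400 UMIs per cell (filled, with Clopper-Pearson 95% intervals) and with all UMIs (open), in the 3 libraries. At equal depth Sgk1 is seen in 12.5% of unstimulated WT cells and in under 1% of the cells of both stimulated libraries, and every open symbol lies above its filled one.

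The 7 genes were then compared with each other within cells. In thinned cells, none of the 7 was seen in 23.8% of unstimulated WT, 70.7% of stimulated WT and 68.4% of IFT20-KO cells, and at least 2 were seen in 35.3%, 3.25% and 4.20%. Among the 21 pairs of genes, Pearson's r across cells ran from -0.02 to 0.04 in unstimulated WT (7230 cells), from -0.02 to 0.04 in stimulated WT (9482 cells) and from -0.01 to 0.02 in IFT20-KO (13920 cells). The cells of 1 library share their preparation and depth, and in counts this sparse such values are no finding. Sgk1 and Foxo1 were seen together in 358 unstimulated WT cells where 300 were expected if the 2 were independent, a ratio of 1.19 (1.07 to 1.32). For Ddit4 and Foxo3 that ratio was 1.32 (1.05 to 1.64) in unstimulated WT, and for Tsc22d3 and Foxo1 it was 1.37 (1.02 to 1.79) in IFT20-KO. No interval of any other pair in the 3 libraries excluded 1. With 21 pairs in each library and intervals at 95%, a few can exclude 1 by counting error alone. In cells of 3000 to 8000 UMIs, without thinning, the Sgk1 and Foxo1 ratio was 1.05 in unstimulated WT. That of Ddit4 and Foxo3 was 1.04 in the same cells. For Tsc22d3 and Foxo1 in IFT20-KO cells of that depth it was 1.40. Nothing is read from the named pairs.

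Cells in which marker genes were seen differed in their level of the 7 genes. In unstimulated WT, the 343 cells with a UMI of Foxp3, the factor of regulatory T cells, had 41.3 Sgk1 CPM, against 100 in cells without, a log2 ratio of -1.28 (-1.64 to -0.93). The 267 cells with a UMI of Il2ra, the high-affinity IL-2 receptor chain, had 30.1 against 100. These subsets overlap, with 128 cells that held both. Sgk1 was at 20.6 (11.3 to 34.6) where both were seen, 55.5 (41.8 to 72.2) with Foxp3 alone, 39.1 (26.0 to 56.5) with Il2ra alone and 101 (97.9 to 105) with neither. The intervals of the 3 subsets with either gene all lay below that of the cells with neither. The other 6 genes differed between unstimulated cells with and without Foxp3 by no more than 0.11 on the log2 scale, with every interval containing 0 when all UMIs were used. Cells with and without Foxp3 had similar depths, at medians of 4583 and 4627.5 UMIs. At 1400 UMIs per cell, where 144 cells still had a Foxp3 UMI, 2 of these 6 genes had an interval that excluded 0, Per1 at 1.98 (0.73 to 3.01) on 8 UMIs and Foxo1 at -0.48 (-0.94 to -0.05). At that depth the Sgk1 log2 ratios were -0.9998 (-2.065 to -0.11) for Foxp3 and -1.52 (-3.14 to -0.29) for Il2ra. With all UMIs, the Sgk1 ratio for Foxp3 was 0.60 (-1.04 to 1.86) in stimulated WT and 1.18 (-0.06 to 2.20) in IFT20-KO. These rested on 5 and 8 Sgk1 UMIs. In the same libraries Tsc22d3 was at 0.70 (0.29 to 1.09) and 0.61 (0.21 to 0.98), and Foxo1 at 0.54 (0.33 to 0.73) and 0.54 (0.37 to 0.71). At 1400 UMIs per cell every such interval of Tsc22d3 and Foxo1 contained 0.

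Tsc22d3 also differed between subsets of stimulated cells. In stimulated WT it was at 23.3 CPM in the 3689 cells with Klf2, a factor of T cell quiescence, and at 9.70 in cells without. In cells with Cd69, an early activation marker, it was at 12.3 against 27.5. Cells with Cd69 were deeper, with medians of 13296 against 8771.5 UMIs, and at equal depth this log2 ratio was -0.49 (-0.93 to -0.07) in place of -1.17. For Il7r, another gene of resting cells, the values were 17.2 and 15.2, a log2 ratio of 0.18 (-0.14 to 0.48). IFT20-KO cells gave values in the same order, with 19.0 against 9.91 for Klf2 and 11.1 against 19.4 for Cd69. In unstimulated WT Tsc22d3 was at 377 CPM with Klf2 and 193 without, where the cells without had a median of 1227 UMIs, and at equal depth this log2 ratio was 0.36 (0.25 to 0.47) in place of 0.97.

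Foxo1 followed the same order in stimulated WT, with 79.7 against 53.6 CPM for Klf2 and 56.1 against 97.1 for Cd69. At equal depth the Foxo1 log2 ratio for Cd69 was -0.36 (-0.55 to -0.16) in place of -0.79. In unstimulated WT Foxo1 differed little between these subsets, with 281 CPM in cells with Cd69 and 306 in cells without. The Foxo1 ratio for Il2ra turned its sign with depth, from -0.32 with all UMIs to 0.33 in thinned cells of stimulated WT, and from -0.28 to 0.35 in IFT20-KO.

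Per1 had the opposite order. In stimulated WT it was at 16.4 CPM in cells with Nr4a1, an immediate early gene of T cell receptor signalling, and at 10.1 in cells without. For Cd69 these were 14.0 and 8.59, and for Klf2 10.1 and 14.9. The log2 ratio for Nr4a1 was 0.99 (0.44 to 1.49) in unstimulated WT, 0.70 (0.55 to 0.85) in stimulated WT and 0.62 (0.47 to 0.77) in IFT20-KO. Cells with Nr4a1 were the deeper ones, with medians of 14022 against 10740 UMIs in stimulated WT, and at equal depth the ratio was 0.67 (0.06 to 1.24). At equal depth it was 0.59 (0.11 to 1.05) in IFT20-KO. In unstimulated WT it was then 1.19 (-0.71 to 2.59), an interval that contains 0, on 4 Per1 UMIs in cells with Nr4a1. Klf2, like Il7r and Sgk1 itself, was added to the subset genes after the data had been seen.

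The few Sgk1 UMIs of stimulated WT gave 1.48 CPM in cells with Il7r, the IL-7 receptor gene, and 1.46 in cells without, and 1.43 and 1.48 for Klf2. Neither log2 ratio had an interval that excluded 0. In IFT20-KO, cells with and without Il7r had 3.03 and 1.18 CPM, which rests on 12 UMIs in 512 cells, with a log2 ratio of 1.36 (0.37 to 2.22). At equal depth it rested on 2 UMIs, with an interval from -0.52 to 4.62.

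**Figure D4:**
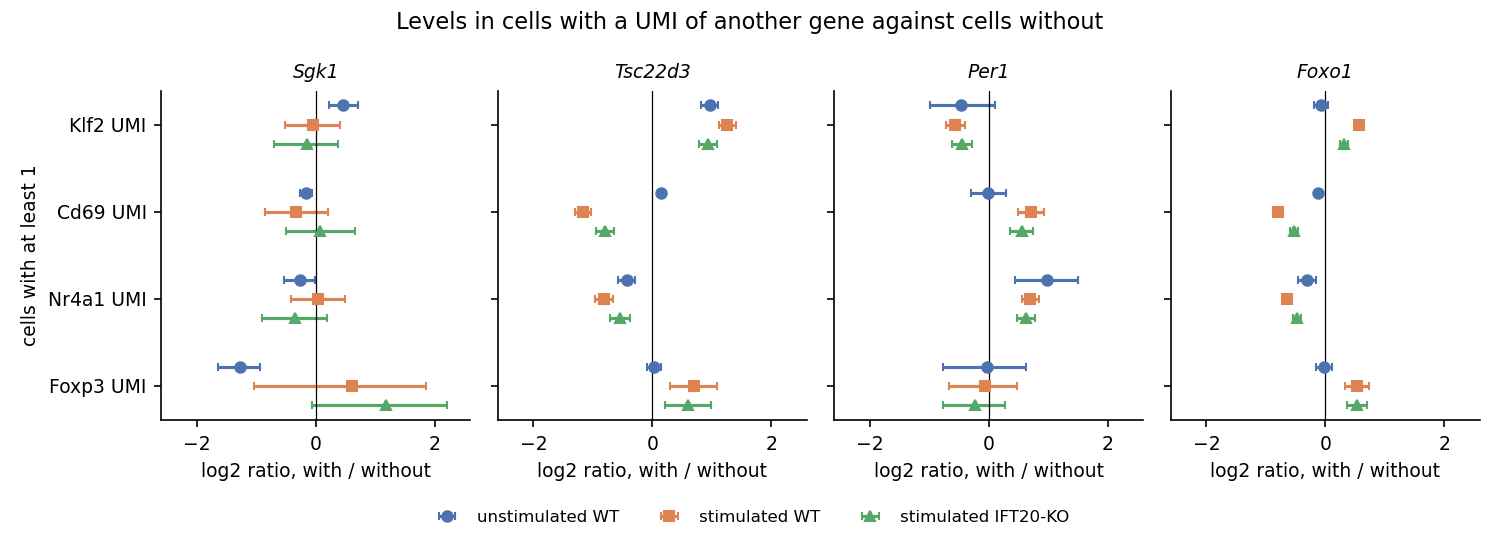
Log2 ratio of CPM of Sgk1, Tsc22d3, Per1 and Foxo1 between cells with and without at least 1 UMI of Klf2, Cd69, Nr4a1 or Foxp3, in each library, with 95% counting intervals. All UMIs are used, without thinning. Sgk1 is lower with Foxp3 in unstimulated WT (-1.28). Tsc22d3 is higher with Klf2 in all 3 libraries, and Per1 is higher with Nr4a1 in all 3. At equal depth the Per1 interval for Nr4a1 in unstimulated WT contains 0.

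Levels also differed between shallow and deep cells, which were split into 4 equal groups by UMI count. In stimulated WT the lowest group had a median of 10.0% mitochondrial UMIs, and Foxo1 was at 116 CPM in it and at 53.2 in the highest group. Fkbp5 was at 28.4 and 13.9, Foxo3 at 28.3 and 14.8, and Tsc22d3 at 24.5 and 11.1. Ddit4 ran the other way, from 91.8 to 119. In IFT20-KO the same 5 genes lay in the same direction, with Foxo1 at 116 and 58.0 and Ddit4 at 103 and 120. In unstimulated WT, Foxo1 went from 400 to 270 and Sgk1 from 110 to 88.1.

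**Figure D5:**
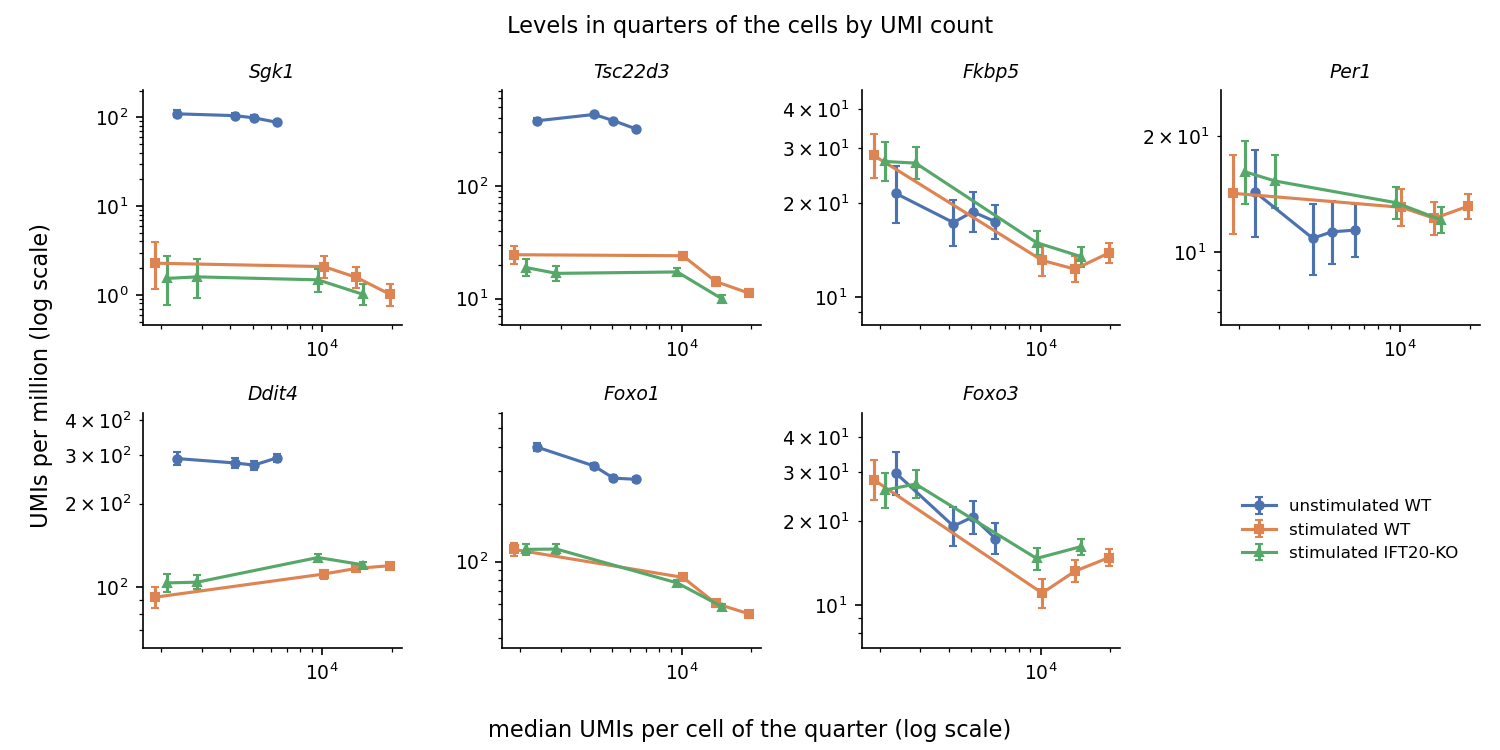
CPM (log axis) of each gene in 4 equal groups of cells ordered by UMI count, against the median UMIs of the group (log axis), with Poisson 95% intervals, in the 3 libraries. In both stimulated libraries Foxo1 is lower in deeper cells, from 116 to 53.2 in WT and from 116 to 58.0 in IFT20-KO, and Ddit4 is higher.

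The 2 stimulated libraries held different shares of shallow cells. Cells with fewer than 3000 UMIs were 21.7% of stimulated WT and 39.6% of IFT20-KO cells, and those with more than 8000 UMIs were 71.3% and 44.2%. Within the cells of more than 8000 UMIs, IFT20-KO over stimulated WT was 0.04 (-0.01 to 0.09) for Foxo1, against 0.20 over all cells. There it was 0.08 (-0.03 to 0.19) for Fkbp5, 0.20 (0.09 to 0.31) for Foxo3, 0.06 (0.02 to 0.10) for Ddit4 and -0.31 (-0.42 to -0.19) for Tsc22d3. In cells with fewer than 3000 UMIs, Foxo1 was at -0.07 (-0.22 to 0.08), Foxo3 at -0.25 (-0.55 to 0.06), Fkbp5 at -0.30 (-0.60 to 0.00) and Ddit4 at 0.30 (0.12 to 0.48). In the cells between the 2 limits, Foxo3 was at 0.73 (0.29 to 1.19), Fkbp5 at 0.51 (0.09 to 0.95) and Ddit4 at 0.21 (0.05 to 0.37). The Foxo1 ratio over all cells was larger than in each of these groups, and than in the cells between them (0.06). The Tsc22d3 ratio was negative in all 3 groups, at -0.55 (-0.86 to -0.24) between the limits and -0.35 (-0.73 to 0.03) in the shallow one. This split was added after the data had been seen.

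The pathways around the 7 genes are given as lists, by the count and median of their measured genes. Some genes, among them Txnip, Sesn1 and Il7r, stand in several lists, so the counts of the lists are not independent of each other. The glucocorticoid receptor gene Nr3c1 was at 62.5 CPM in unstimulated WT, 37.4 in stimulated WT and 46.1 in IFT20-KO. Of 13 measured genes of the receptor, its chaperones and its cofactors, 7 were higher and 6 lower in stimulated WT, with a median log2 ratio of 0.64 beside -0.09 for all genes. The chaperone genes Hsp90ab1 (2.21) and Fkbp4 (1.32) were higher. Hsd11b1, which encodes the enzyme that regenerates active glucocorticoid from its inert form, was the lowest at -3.84, with 115 and 7.98 CPM.

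Other genes known to be induced by glucocorticoids did not move as 1 group. Of 19 measured, 13 were lower and 6 higher in stimulated WT, with a median of -0.95. Txnip, an inhibitor of thioredoxin, had 418 and 26.6 CPM in unstimulated and stimulated WT (-3.97), and Dusp1, a phosphatase of MAP kinases, had 19.4 and 10.0. On the other side, Klf9, a transcription factor, was higher at 1.66, with 2.48 and 7.83 CPM. The metallothionein gene Mt1 had 1 UMI in unstimulated and 763 in stimulated WT, a log2 ratio of 7.92 (5.44 to 13.2). In IFT20-KO over stimulated WT the median of 18 measured genes was 0.11, beside 0.14 for all genes, with 14 higher and 4 lower. Against that 0.14 of all genes, 7 lay above and 11 below.

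FOXO target genes of T cells were mostly lower in stimulated than in unstimulated WT. Of 28 measured, 22 were lower, 17 of them at least 2-fold, and 6 were higher, with a median log2 ratio of -1.75. Over all genes 23.0% were at least 2-fold lower and the median was -0.09. S1pr1, a receptor needed to leave lymphoid organs, was at 294 and 8.89 CPM in unstimulated and stimulated WT, and Il7r at 476 and 5.45. Klf2 was at -3.30 on the log2 scale, whereas the chemokine receptor gene Ccr7 was at -0.44 and Bnip3, a mitophagy gene, at 2.52. In IFT20-KO over stimulated WT 23 of the 28 were higher and 5 lower, with a median of 0.25 beside 0.14 for all genes, and 18 lay above and 10 below that value. Pik3ip1, which encodes an inhibitor of PI3K, was the highest there at 0.87 (0.73 to 1.01), with 5.86 and 10.7 CPM, and Eomes the lowest at -0.85. Klf2 was at -0.21.

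Of the SGK and AKT kinases and their partners, 23 were measured, with a median of -0.57 for stimulation (7 higher, 16 lower) and 0.25 for IFT20-KO over stimulated WT (17 higher, 6 lower). Against the median of all genes in the latter, 0.14, 13 lay above and 9 below. Sgk3, a close relative of Sgk1, was at 34.3, 6.13 and 8.66 CPM in unstimulated WT, stimulated WT and IFT20-KO. Sgk2 and Foxo6 had no UMI in any library. Akt1 was at 16.5, 21.9 and 17.5 CPM and Akt2 at 60.3, 81.1 and 81.0, so both AKT genes were higher in stimulated WT where Sgk1 and Sgk3 were lower. Rictor, the defining subunit of mTORC2, was at 35.7, 13.0 and 19.6, Mtor itself at 13.0, 14.2 and 14.97, and Foxo4 at 8.03, 3.65 and 5.36. Nedd4l, a ubiquitin ligase gene whose product SGK1 phosphorylates, was at 17.3, 5.07 and 6.03. The highest ratio for stimulation was that of Prr5, with 2 and 67 UMIs (3.41, 1.501 to 6.49).

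Of 15 measured genes of the REDD1 axis and its inducers, 8 were higher and 7 lower in stimulated WT (median 0.19), and 11 higher and 4 lower in IFT20-KO over stimulated WT (median 0.18, with 9 above and 6 below the 0.14 of all genes). Atf4, the factor of the integrated stress response, was at 69.3 CPM in unstimulated WT, 201 in stimulated WT and 167 in IFT20-KO. Hif1a, the low-oxygen factor, was at 48.96, 219 and 235, and Sesn2, another stress-induced inhibitor of mTORC1, at 2.40, 19.8 and 20.8. Chac1, a target of ATF4, had 2 UMIs in unstimulated WT and 2683 in stimulated WT, the highest ratio of the list at 8.73 (6.88 to 11.78). Lower like Ddit4 were Txnip, the lowest of the list (-3.97), Sesn1 (-2.40) and Ddit3 (-0.76), of which Sesn1 and Ddit3 were named after their values were seen. Ddit4 itself was lower in stimulated WT in CPM and about level per cell, as given above.

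Of 19 measured clock genes, 10 were lower and 9 higher in stimulated WT (median -0.26), and 16 were higher and 3 lower in IFT20-KO over stimulated WT (median 0.27, with 12 above and 7 below the 0.14 of all genes). Per2 was at 0.700, 2.19 and 2.64 CPM in unstimulated WT, stimulated WT and IFT20-KO, and Bhlhe40, a repressor also known as an activation gene of T cells, at 0.458, 30.3 and 32.4. Nr1d1 (-2.36), Nr1d2 (-1.59) and Dbp (-1.84) were lower in stimulated WT. Of 9 relatives of Fkbp5 and Tsc22d3, 6 were higher and 3 lower for stimulation, with Fkbp1a at 1.54, Tsc22d1 at -1.74 and Tsc22d4 at -0.68. The median of the 9 for IFT20-KO over stimulated WT was 0.00, with 5 higher and 4 lower. Against the 0.14 of all genes, 2 lay above and 7 below.

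The genes most like Sgk1 were sought by the Euclidean distance in the plane of both log2 ratios. The search covered 3 libraries and 3419 genes with at least 50 CPM in any of them, without T cell receptor and immunoglobulin segments. The nearest genes were Gm45552 (distance 0.129), Il7r (0.523), Irf7 (0.862), Cd7 (1.06) and Gm26740 (1.13). Irf7, the gene of an interferon regulatory factor, was at 58.2, 1.08 and 0.526 CPM, and Gm45552 at 215, 3.49 and 2.86. In unstimulated WT, thinned cells with an Sgk1 UMI (901 cells) differed from the other 6329 by at most 0.57 upward (Tnrc6a, followed by Gmcl1, Ppp2r5a, Ephx1 and Commd6) and -0.64 downward (Fam46c, followed by Tagap, Itga6, Sh2d3c and Zfp638) on the log2 scale, among 2587 genes of at least 50 CPM. The thinned stimulated libraries had 22 and 25 such cells, too few for the same comparison.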

How the data were processed

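The authors aligned the reads to mm10, called barcodes and counted UMIs per gene with Cell Ranger (3.1.0 per the file headers), and deposited whole-number counts without normalization for 3 libraries. The labels name a 5′ kit and the methods a 3′ kit, so which transcript end was counted is uncertain. No columns of the authors' own comparisons were used.

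The members and gene lists were chosen with earlier results of these data known. UMIs were summed over cells that passed the filter of the study (over 200 genes, mitochondrial share below 15%) and given as counts per 1000000 UMIs (CPM). Ratios carry exact binomial, levels exact Poisson and shares exact Clopper-Pearson intervals at 95%, for counting error only. A gene at 0 took a floor of 3 counts. A gene was measured with at least 10 UMIs over both libraries. Cells were thinned to 1400 UMIs with seed 1, and subsets needed at least 100 cells with the subset gene. Expected co-detection was the product of the 2 shares. No doublet caller was run, and the 6% of cells with most UMIs were left out as an alternative. The named genes were the 7 members, a fixed part of each list with its highest and lowest ratio, the 5 genes nearest to Sgk1, and the 5 highest and 5 lowest in cells with Sgk1. Not every gene that this rule allows is given.

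Python 3.11.15, numpy 2.4.6, scipy 1.17.1, pandas 2.3.3 and matplotlib 3.10.9 were used. The ratio step was tested on simulated data. The thinning step was checked on part of the real unstimulated WT barcodes, for cell totals and for counts that never rose. Alternatives were median-ratio scaling, totals without ribosomal and mitochondrial genes, UMIs per cell, all barcodes, a stricter filter (over 1000 genes, mitochondrial share below 10%), thinning, cells of 3000 to 8000 UMIs, and minimums of 1 and 200 UMIs per gene. Added after the data were seen were the removal of barcodes shared between libraries and the groups of cells above 8000 and below 3000 UMIs. Some items are not reported here.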

Additional observations from a re-analysis of the deposited data

How the results depend on the processing

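In stimulated over unstimulated WT, the Sgk1, Tsc22d3 and Foxo1 log2 ratios stayed negative under all 10 alternatives. On every CPM scale, Sgk1 ran from -6.16 to -5.65 (the latter in cells of 3000 to 8000 UMIs), Tsc22d3 from -4.69 to -3.48 and Foxo1 from -2.31 to -1.51. As UMIs per cell, Sgk1 was -4.70, Fkbp5 turned to 0.96, Ddit4 to 0.0507 and Foxo3 to 0.85. The medians turned to 0.40 for other glucocorticoid-induced genes, 0.78 for the kinases and 1.097 for the clock, which was also 0.14 in thinned cells. On that scale per cell 2 members were lower and 1 higher by 2-fold, and 3 lower and 3 higher by at least 0.32 on the log2 scale. Median-ratio scaling put 1 member higher by at least 0.32.

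For IFT20-KO over stimulated WT, UMIs per cell gave -0.85 for Sgk1, -0.41 for Fkbp5, -0.58 for Ddit4, -0.43 for Foxo1 and -0.32 for Foxo3, with 6 members lower by at least 0.32. The medians were then -0.37 for FOXO targets, -0.38 for the kinases, -0.445 for the REDD1 axis and -0.36 for the clock. Under median-ratio scaling Ddit4 was -0.12 and 2 members were lower by at least 0.32. At 0.32, 1 member was higher under the stricter cell filter and without the cells of most UMIs, 1 was lower and 1 higher in thinned cells, and 2 were lower and 2 higher in cells of 3000 to 8000 UMIs. In cells of fewer than 3000 UMIs 2 were lower, and the values turned to -0.30 for Fkbp5, -0.0694 for Foxo1, -0.25 for Foxo3, -0.0515 for FOXO targets and -0.21 for the kinases. The per-cell scale lacks division by the total, by its construction, and the cause of the other changes was not tested. Counts over all genes moved more. For stimulation, genes lower by 2-fold numbered 3056, and 851 as UMIs per cell, 1494 in cells of 3000 to 8000 UMIs, and 5462 and 1906 with minimums of 1 and 200 UMIs. For IFT20-KO, the 226 lower and 530 higher by 2-fold ranged from 32 to 1658 and from 104 to 1612, and the 851 lower and 4070 higher by at least 0.32 had extremes of 262 and 9244, and of 605 and 5551. Without barcodes found in another library, Sgk1 was -6.08 for stimulation and -0.19 for IFT20-KO. Sgk1 in the stimulated libraries rests on 171 and 133 UMIs, which sets its counting interval. No paired analysis was possible because each group has 1 library.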
